A study of Mus musculus with 14 samples.

Results

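The transcription factors that give the gut epithelium its identity were followed across 5 groups of mouse samples measured on Agilent gene expression arrays. The set held 8 genes of the 36282 gene names on the array, chosen by symbol and not by their values: the caudal homeobox genes Cdx1 and Cdx2, the nuclear receptor gene Hnf4a, the zinc finger genes Gata4 and Gata6, the Krüppel-like genes Klf4 and Klf5, and the HMG box gene Sox9. Each was read by a single probe of the 55681 probes. The study compared intestinal tissue with early and late tumor models to ask how expression and DNA methylation change along malignant progression, and expression alone is described here. Small intestine (3 arrays) and colon (3 arrays) came from C57BL/6J mice. Adenomas (3 arrays) and tissue adjacent to adenomas (2 arrays) came from APCmin/+ mice, which carry a truncated copy of the tumor suppressor gene Apc and develop many intestinal adenomas; the methods place them on the same C57BL/6J background. The sample numbering of the study traces every adenoma and adjacent piece to 1 mouse, so these arrays are pieces of tissue rather than animals. The same source lists 1 colon sample under an APCmin/+ mouse, whereas the labels give C57BL/6J for all. CT26 (3 arrays) is a colon carcinoma cell line derived from a BALB/c mouse, and nothing says that its arrays came from separate cultures. The wild-type mice were adults, and the methods name no experimental treatment, only analgesics for APCmin/+ mice that showed suffering. The p-values below therefore measure the spread between arrays.

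These factors act as a network in the cells that line the gut. CDX1 and CDX2 set intestinal against gastric fate and switch on digestive genes, and HNF4A maintains enterocyte genes such as those of lipid transport and the brush border. GATA4 marks the proximal small intestine and is normally low in ileum and colon, while GATA6 is present along the whole gut. KLF4 is found in differentiated cells that have left the cycle, KLF5 in dividing crypt cells, and SOX9, a target of Wnt signalling, in crypt base and progenitor cells.

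Levels are given as scaled log2 signal, that is the log2 processed signal of a probe minus the 75th percentile of its array, so that 0 is the brightness at that percentile. A difference between groups is a difference of these means, and levels of different genes cannot be set against each other because each probe has its own efficiency. All 8 factors were well above background in small intestine, adjacent tissue and adenomas, and none was saturated. Each of the 8 passed the filter on dim probes in every comparison, some of them through 1 of the groups compared, as given below. A gene was called when its log2 difference reached 1.2 in size with an adjusted p of at most 0.01 in limma, the thresholds of the study.

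The tissue labels were checked with marker lists. The 8 epithelial markers (Epcam, Cdh1, keratins and others) had median levels of 7.98 to 8.49 in small intestine, 7.45 to 7.72 in adjacent tissue, 7.23 to 7.63 in adenomas and 7.44 to 8.34 in colon. In CT26 the median was -5.72 to -5.14, 4 of the 8 markers were well above background on no array, and their summed signal was 36.4 to 56.5 against 1538 to 3062 in colon. Colon replicate 3 stood apart from the other colon arrays. Its median for 10 small intestine enterocyte markers was 5.91, against -1.21 and -0.67 on colon replicates 1 and 2, while its median for 9 colonocyte markers was 4.62, against 5.59 and 5.49. The ileal bile acid gene Fabp6 had a level of 11.12 on colon replicate 3 and of 1.84 and 1.42 on the other colon arrays. Where leaving out this array changed a call of a factor or turned its direction, both values are given below.

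**Figure D1:**
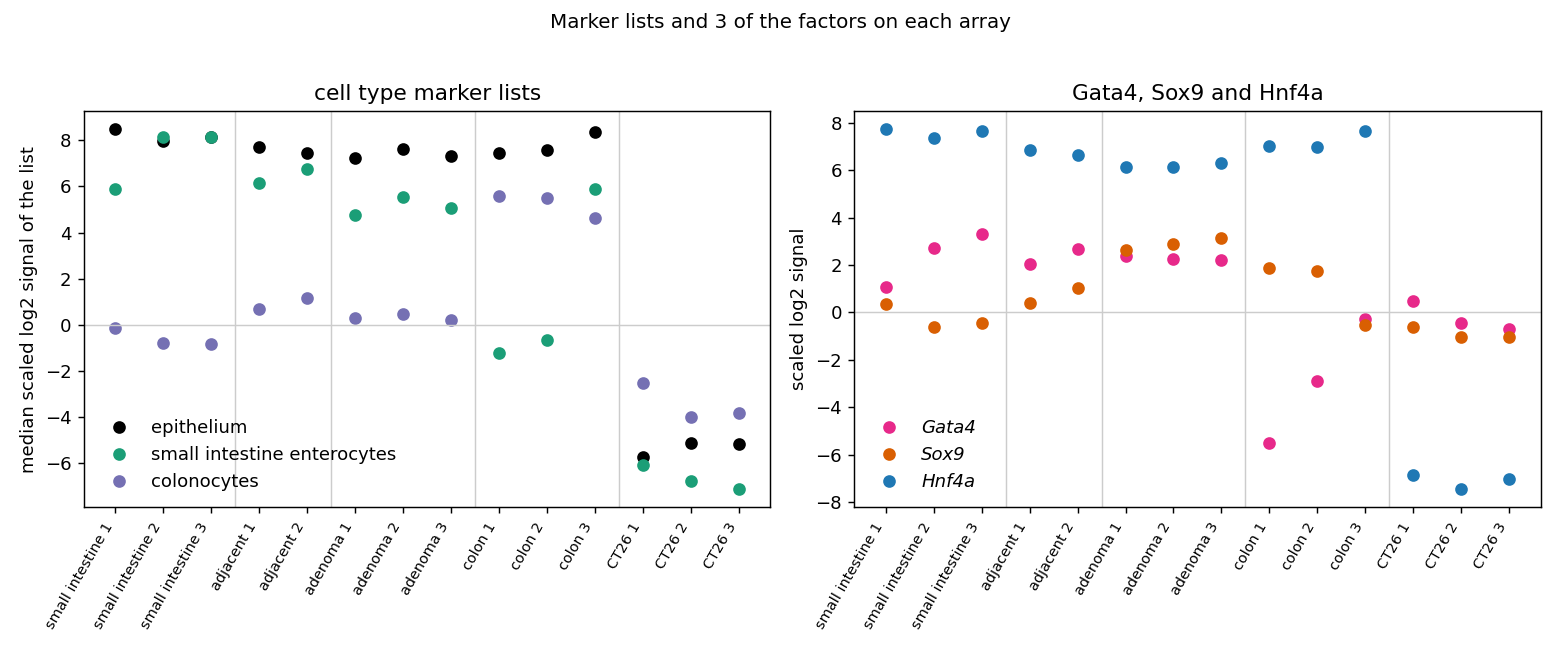
Left, the median scaled log2 signal of 3 marker lists on each of the 14 arrays; right, the scaled log2 signal of Gata4, Sox9 and Hnf4a on the same arrays. Epithelial markers were high in all tissues and low in CT26, and colon replicate 3 combined a colonocyte median of 4.62 with an enterocyte median of 5.91.

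The caudal genes had their highest levels in the normal tissues. Cdx1 was measured at 6.50, 5.91 and 5.93 in small intestine, 5.80 and 5.12 in adjacent tissue, 4.14, 4.30 and 4.66 in adenomas and 7.05, 6.88 and 6.26 in colon. On the CT26 arrays its values were -6.92, -5.98 and -5.68, none of them well above background. In the order colon, small intestine, adjacent tissue, adenoma and CT26, only colon and small intestine overlapped.

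Cdx2 was read by a probe at chr5:148112547-148112606 (NCBI37/mm9, minus strand). Its values were 5.37, 4.804 and 5.01 in small intestine, 4.79 and 4.34 in adjacent tissue, 3.38, 3.73 and 3.83 in adenomas and 4.44, 5.23 and 5.61 in colon. Unlike Cdx1, it remained well above background in CT26, at -3.68, -2.50 and -3.36. The order of groups was that of Cdx1, again with an overlap between colon and small intestine and none between later neighbours, although the nearest small intestine and adjacent arrays were only 0.02 apart.

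Hnf4a was read by a probe at chr2:163398548-163398607 (plus strand). It was measured at 7.74, 7.36 and 7.67 in small intestine, 6.86 and 6.62 in adjacent tissue, 6.15, 6.13 and 6.29 in adenomas and 7.02, 6.99 and 7.63 in colon. The CT26 arrays gave -6.86, -7.46 and -7.03, none well above background. Small intestine and colon overlapped, and colon, adjacent tissue, adenoma and CT26 followed without overlap. Colon replicate 3 supplied the highest Cdx2 and Hnf4a values of its group and the lowest Cdx1 value.

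The GATA genes had lower means in colon than in small intestine. Gata4 (probe at chr14:63817858-63817917, minus strand) was measured at 1.06, 2.70 and 3.32 in small intestine, 2.03 and 2.67 in adjacent tissue and 2.37, 2.24 and 2.20 in adenomas. The colon arrays spread over -5.50, -2.88 and -0.28, of which the first was not well above background and the last was replicate 3. CT26 gave 0.47, -0.44 and -0.70, above colon replicates 1 and 2. Small intestine, adjacent tissue and adenomas overlapped, as did CT26 and colon.

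Within small intestine the array with the lowest Gata4 value was the one with the highest ileal genes. Fabp6 was at 9.95, 1.60 and -1.74 on small intestine replicates 1, 2 and 3, and the ileal bile acid transporter gene Slc10a2 at 5.56, -1.94 and -2.11. Which stretch of the small intestine each sample came from was not given in the sources used here. The part of the sampled stretch in the Gata4 values was not tested.

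Gata6 spanned a narrower range among tissues. It was measured at 2.55, 3.09 and 3.41 in small intestine, 2.26 and 2.84 in adjacent tissue, 2.40, 2.44 and 2.48 in adenomas and 2.13, 1.72 and 2.04 in colon. In CT26 no array was well above background for it, with values of -6.63, -7.05 and -6.94. Its first 3 groups overlapped in order, and colon lay below adenomas and above CT26 without overlap.

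The 2 Krüppel-like genes behaved differently from each other. Klf4 (probe at chr4:55540167-55540226, minus strand) was measured at 5.43, 5.59 and 6.31 in small intestine and 5.21, 5.66 and 5.53 in colon, but at 3.36 and 3.19 in adjacent tissue and 2.93, 2.89 and 2.36 in adenomas. CT26 lay between, at 4.72, 4.32 and 4.52. Small intestine and colon overlapped, and CT26, adjacent tissue and adenoma followed without overlap. Of the 8 genes, only Klf4 had CT26 arrays above all adenoma arrays.

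Klf5 was read by a probe whose ends lie 9733 bases apart on the genome (chr14:99702656-99712388, plus strand), so that it spans an intron. Its values were 5.27, 4.87 and 4.90 in small intestine, 4.91 and 4.59 in adjacent tissue, 4.74, 4.94 and 4.85 in adenomas and 5.44, 4.92 and 4.98 in colon. The CT26 arrays spread more widely, at 4.602, 2.72 and 3.33. Every pair of neighbouring groups in its order overlapped.

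Sox9 (probe at chr11:112648809-112648868, plus strand, printed as 10 spots that were averaged) ran opposite to the caudal genes from small intestine over adjacent tissue to adenomas, though not in CT26. Small intestine gave 0.33, -0.63 and -0.45, adjacent tissue 0.42 and 1.04, and adenomas 2.65, 2.89 and 3.16. In colon it was at 1.88 and 1.74 on replicates 1 and 2 and at -0.52 on replicate 3, within the small intestine range. CT26 had the lowest mean, with values of -0.60, -1.02 and -1.02. Adenomas lay above all other groups without overlap.

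**Figure D2:**
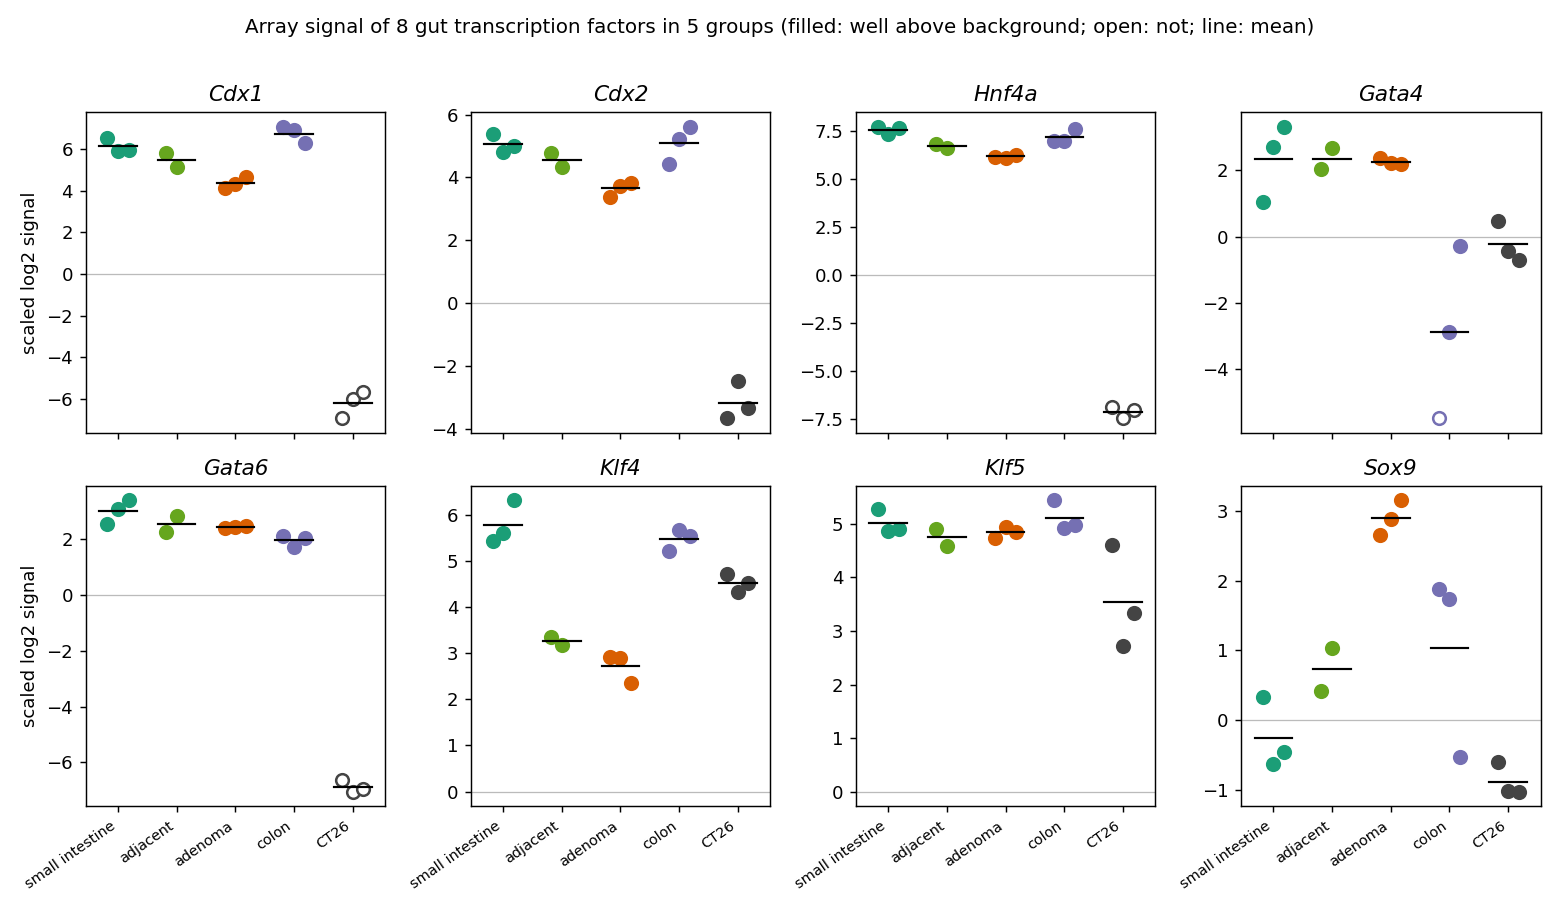
Scaled log2 signal of the 8 factors (one panel each, with its own vertical scale) on every array, by group; filled points were well above background, open points were not, and the line is the group mean. Cdx1, Hnf4a and Gata6 have only open points in CT26, Klf4 is low in adjacent tissue and adenomas, and Sox9 is highest in adenomas.

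In adenomas against small intestine, the comparison for early tumorigenesis, 4 factors fell and 1 rose. Cdx1 was 3.36-fold lower (log2 difference -1.75, SE 0.23, limma adjusted p = 0.00122, 3 against 3 arrays), Cdx2 2.67-fold lower (-1.41, SE 0.22, adjusted p = 0.00212), Hnf4a 2.63-fold lower (-1.40, SE 0.17, adjusted p = 8.67e-04) and Klf4 8.32-fold lower (-3.06, SE 0.28, adjusted p = 3.14e-04). Sox9 was 8.85-fold higher (log2 difference 3.15, SE 0.29, adjusted p = 2.88e-04). All 3 adenoma arrays lay outside the small intestine range for these 5 genes and for Gata6, as they did for 65.2% of all genes tested. Gata6 had a log2 difference of -0.58 (adjusted p = 0.0753), Klf5 of -0.17 (0.434) and Gata4 of -0.09 (0.896), none of them called. Of 22155 genes tested, 11.1% were called lower and 11.3% higher. The median log2 difference of the 8 factors was -0.99, against -0.15 over all genes tested. In whole tissue, fewer cells of a type and less RNA per cell cannot be told apart.

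Epithelial markers moved with these results. Of the 8, Vil1, Krt20 and Cldn7 were called lower in adenomas, Krt18 higher and 4 were not called, with a median log2 difference of -0.69; Vil1 is also a known HNF4A target. When each array was scaled on the median of the 8 markers instead, an alternative chosen after seeing the data, Klf4 (log2 difference -2.24, adjusted p = 3.63e-04) and Sox9 (3.96, adjusted p = 2.85e-06) kept their calls. Under that scaling Cdx1 was at -0.93 (adjusted p = 0.0168), Cdx2 at -0.60 (0.0800) and Hnf4a at -0.58 (0.0968), and the 3 calls were lost. Over all genes tested this scaling called 4.59% lower and 28.8% higher. It moved the median of all probes tested from -0.15 to 0.66. With the authors' own normalized values and with quantile normalization, Cdx2 (-0.997 and -1.06) and Hnf4a (-1.06 and -1.18) came out below the fold threshold. The Cdx2 call was also lost without adenoma replicate 1 (adjusted p = 0.0105) or replicate 2 (0.0110).

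**Figure D3:**
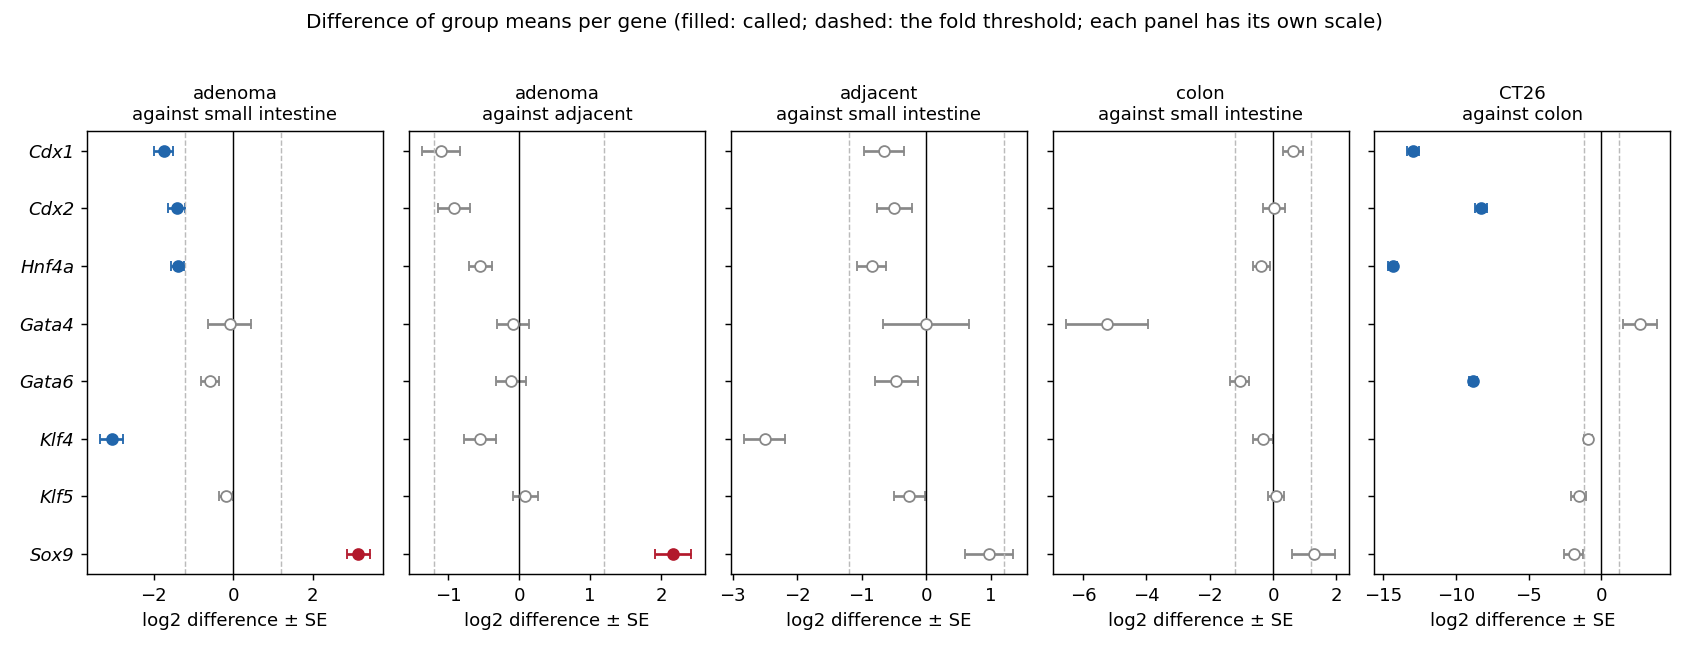
Log2 difference of group means for each factor with its standard error in 5 comparisons, each panel with its own horizontal scale; filled points were called (blue lower, red higher) and dashed lines mark a log2 difference of 1.2. Adenomas differ from small intestine in 5 factors and from adjacent tissue in Sox9, and CT26 is below colon in 4 factors. The CT26 values of Cdx1, Hnf4a and Gata6 were below background, so that their points are not measured sizes.

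Promoter windows from RefSeq were searched for 3 of the 4 genes called lower in adenomas against small intestine, Cdx2, Hnf4a and Klf4. Each of the 4 windows is the 250 bases upstream of a start site (GRCm38.p6), and Hnf4a has an upstream and a downstream start; from which of them its signal came was not examined. The motifs, chosen after the sequences had been read, were TTTAT for CDX factors, AGATAA for GATA factors and CAAAG for HNF4, searched on both strands, and no match overlaps another. The windows that held a match are shown 5′ to 3′ on the gene's strand, with the match in capitals.
Hnf4a upstream start, chr2:163506607-163506856, plus strand: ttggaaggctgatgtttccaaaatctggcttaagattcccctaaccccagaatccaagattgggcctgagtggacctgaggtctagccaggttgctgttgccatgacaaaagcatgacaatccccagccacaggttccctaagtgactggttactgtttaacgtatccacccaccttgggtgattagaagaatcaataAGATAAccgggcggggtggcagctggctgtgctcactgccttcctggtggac
Klf4, chr4:55532476-55532725, minus strand: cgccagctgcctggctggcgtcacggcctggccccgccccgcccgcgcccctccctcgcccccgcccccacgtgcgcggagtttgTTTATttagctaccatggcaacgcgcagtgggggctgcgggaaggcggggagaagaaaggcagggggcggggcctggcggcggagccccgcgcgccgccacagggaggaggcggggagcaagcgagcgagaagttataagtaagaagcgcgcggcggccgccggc
The upstream Hnf4a window held a GATA match at 52 bases before the start and the Klf4 window a CDX match at 165 bases. Among 32817 promoter windows of the same length, 37.3% held the CDX letters, 9.99% the GATA letters and 48.6% the HNF4 letters, which none of the 4 windows held. A match is a description of the sequence and not a binding site.

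The genes these factors are known to control fell in part. Of 12 genes known to be driven by CDX factors, 6 were called lower in adenomas and none higher, with a median log2 difference of -1.39. They included the digestive enzyme sucrase-isomaltase (Sis, -4.61, adjusted p = 0.000358), the proglucagon gene Gcg (-4.17), the brush border protocadherin Cdhr5 (-2.72) and the iron oxidase gene Heph (-2.23). Of 12 known HNF4A targets, 9 were called lower and none higher, with a median of -2.32. The small intestine enterocyte markers, of which Apoa4, Apob, Fabp2 and Mttp also stand in this list and Sis and Lct in the CDX list, moved with them, with 7 of 10 called lower and a median of -2.74. The part of enterocytes in these results was not tested. The largest changes were in the apolipoproteins Apoc3 (-4.05, adjusted p = 0.00839) and Apoa1 (-3.13), followed by Cdhr5 and its partner Cdhr2 (-2.60). With arrays scaled on epithelial markers, the CDX list had 4 genes called lower and 1 higher and the HNF4A list 8 lower and none higher, to be read against the shares of that scaling above. Cdhr5 stands in both lists, and both lists were drawn up with earlier results of these data known.

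Partner factors followed a similar course, with 9 of 19 tested called lower and 2 higher. Those that fell included the enterocyte factor Maf (-3.08), the HNF4A paralog Hnf4g (-2.54) and the nuclear receptor gene Nr5a2 (-2.10). On the marker-based scaling 5 were called lower and 4 higher, where 28.8% of all genes were higher. Hnf4g was measured at 2.65 to 3.95 in small intestine, 2.10 to 2.36 in adjacent tissue and 0.27 to 1.12 in adenomas, without overlap. The pioneer factors Foxa1 (1.85, adjusted p = 0.00670) and Foxa3 (1.37, adjusted p = 0.00210) rose.

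Among 12 factors of crypt cells and secretory lineages, 6 were called higher in adenomas and 1 lower. The Wnt effectors Lef1 (5.77, adjusted p = 3.4e-05) and Tcf7 (2.96), the progenitor factor Sox4 (3.12) and the stem cell factor Ascl2 (2.33) rose. Neurod1, an endocrine factor, fell and was not well above background in adenomas. The relatives of the 8 genes showed 6 calls higher and 2 lower among 16 tested. The former were Sox17 (6.51), Sox4 (3.12), Gata2 (3.04), Sox18 (2.47), Gata3 (1.56) and Sox7, and Klf15 (-2.47) and Klf6 (-1.42) fell. Sox7 was not well above background in small intestine and passed the filter through adenomas, where it was at least 4.003-fold higher. Lef1, Sox17 and Gata3 also entered the test through adenomas alone. In small intestine, only 2 of 3 arrays showed each of them well above background. Klf15 entered through small intestine alone, since 2 of 3 adenoma arrays showed it well above background. Sox7, Sox17, Sox18 and Gata2 are expressed by endothelium, of which 6 of 8 markers were called higher; their median level was -2.28 to -1.59 in small intestine and 0.77 to 1.27 in adenomas. The part of blood vessels in these results was not tested.

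Genes of the stomach lining, which CDX factors hold down in the normal gut, were also followed. Of 11 listed genes 8 passed the filter, and each was called higher in adenomas. The trefoil peptides Tff1 (10.56, adjusted p = 0.00171) and Tff2 (10.47, adjusted p = 0.00307), the water channel gene Aqp5 (9.30) and the gland mucin gene Muc6 (8.53) had the largest differences. All but Gkn3 were not well above background on at least 1 small intestine array, so that they passed the filter through adenomas. Gkn1 and Gkn2, well above background on no small intestine array, had to be higher in adenomas. Gkn3, measured on every array of both groups, was at 8.01, 8.59 and 7.65 in adenomas and at -1.78, -0.66 and 2.29 in small intestine. The gastric factor Sox2 was not well above background on any tissue array. In CT26 against colon 4 of the 11 genes were tested. Sox2 and Aqp5 were called higher, both through CT26 alone, and Gkn3 and Muc5ac were not called. Tff2 and Muc6 were well above background on no CT26 array. The part of CDX factors in these values was not tested. Among small intestine arrays, Tff1, Tff2 and Muc6 were well above background on replicate 3 alone, the array with the lowest Fabp6 level. Of 5 ileal genes 3 were called lower in adenomas, Fgf15 at -5.28, Slc51b at -4.94 and Slc51a at -3.97. Fgf15, well above background on 1 of 3 adenoma arrays, passed the filter through small intestine. The part of the sampled stretch in the gastric and ileal values was not tested.

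Adenomas against adjacent tissue asked which differences separate tumor from its surroundings in the same mouse. The 2 adjacent arrays differed in ileal genes. Fabp6 was at 8.12 and -0.83 on adjacent replicates 1 and 2, and at -1.76, -1.425 and -1.78 in adenomas. The part of the sampled stretch in this comparison was not tested. Sox9 was the only factor called, 4.49-fold higher in adenomas (log2 difference 2.17, SE 0.26, adjusted p = 0.00709, 3 against 2 arrays), where 2.4% of 22259 genes tested were called higher and 1.78% lower. The call depended on single arrays. It was lost without adjacent replicate 1 (adjusted p = 0.0177) and without adenoma replicate 1 (0.0242), 2 (0.0478) or 3 (0.0297), with slide as a block (0.0153) and with a replicate block (0.0196). The difference itself kept its direction and ranged from 1.86 to 2.48 over these omissions. With the number in the sample titles as a block the call was lost as well, in a fit that called 0 of 22259 genes. Cdx1 had a log2 difference of -1.09 (adjusted p = 0.0417), Cdx2 of -0.92 (0.0409), Hnf4a of -0.55 (0.0637) and Klf4 of -0.55 (0.135), none of them called. The arrays of the 2 groups did not overlap for these 4 genes and Sox9, nor for 57.1% of all genes tested. Gata4 (-0.09), Gata6 (-0.11) and Klf5 (0.09) overlapped.

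Few of the surrounding lists were called here. By limma the CDX target list had 0 of 12 called, with 8 at an unadjusted p under 0.05, where 38.3% of all genes were, and a median of -0.88, and the HNF4A target list 1 of 12, Apoc3, lower (-2.68, adjusted p = 0.00798). Foxa1 (1.77) and Foxa3 (1.57) were called higher and Maf (-2.21) and Vdr (-1.66), the vitamin D receptor gene, lower. Lef1 (3.17), the goblet cell factor Spdef (1.67) and Sox4 (1.64) were called higher, and 5 of 8 gastric genes were called higher, with Aqp5 at 7.42. Of these 5, Tff2 was not well above background on adjacent replicate 1 and passed the filter through adenomas. Epithelial markers had a median difference of 0.17 in this comparison, of which 1 of 8 was called.

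Adjacent tissue against small intestine gave no called factor, and in all 0.00922% of 21700 genes tested were called in either direction. By limma, 3 of the 8 factors had an unadjusted p under 0.05, as did 30.6% of all genes tested. The largest difference was that of Klf4, 5.69-fold lower in adjacent tissue (log2 difference -2.51, SE 0.32, adjusted p = 0.0415). It was called when all 5 groups shared 1 estimate of spread (adjusted p = 0.00278), in a fit that called 46 of 21700 genes lower. Hnf4a had a log2 difference of -0.85 (adjusted p = 0.0840) and Sox9 of 0.98 (0.146). Arrays did not overlap for Klf4, Hnf4a, Sox9, Cdx1 and Cdx2, nor for 52.9% of all genes tested. On the marker-based scaling Cdx1 (-0.03) and Cdx2 (0.13) were near 0, and Klf4 was still at -1.88.

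The mean of adjacent tissue lay between those of small intestine and adenoma for 7 of the 8 factors, Klf5 being the exception. Expressed as a share of the log2 distance from small intestine to adenoma, adjacent tissue had covered 82.1% for Klf4, 60.9% for Hnf4a, 37.5% for Cdx1, 35.2% for Cdx2 and 31.1% for Sox9. The share for Gata6 was 80.3%, of a distance that was not called. Scaled on epithelial markers, the shares were 84.0% for Klf4, 38.7% for Hnf4a, 3.40% for Cdx1 and 40.5% for Sox9, and Cdx2 no longer lay between. With the authors' values and with quantile normalization they were 17.9% and 21.0% for Cdx1 and 2.84% and 6.57% for Cdx2. Under each of these scalings the Klf4 difference lay mostly between small intestine and adjacent tissue, and the Sox9 difference mostly between adjacent tissue and adenoma. These shares describe group means over 2 or 3 arrays, and the difference between factors was not tested. The 2 adjacent arrays behind them differed in ileal genes, as given above.

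**Figure D4:**
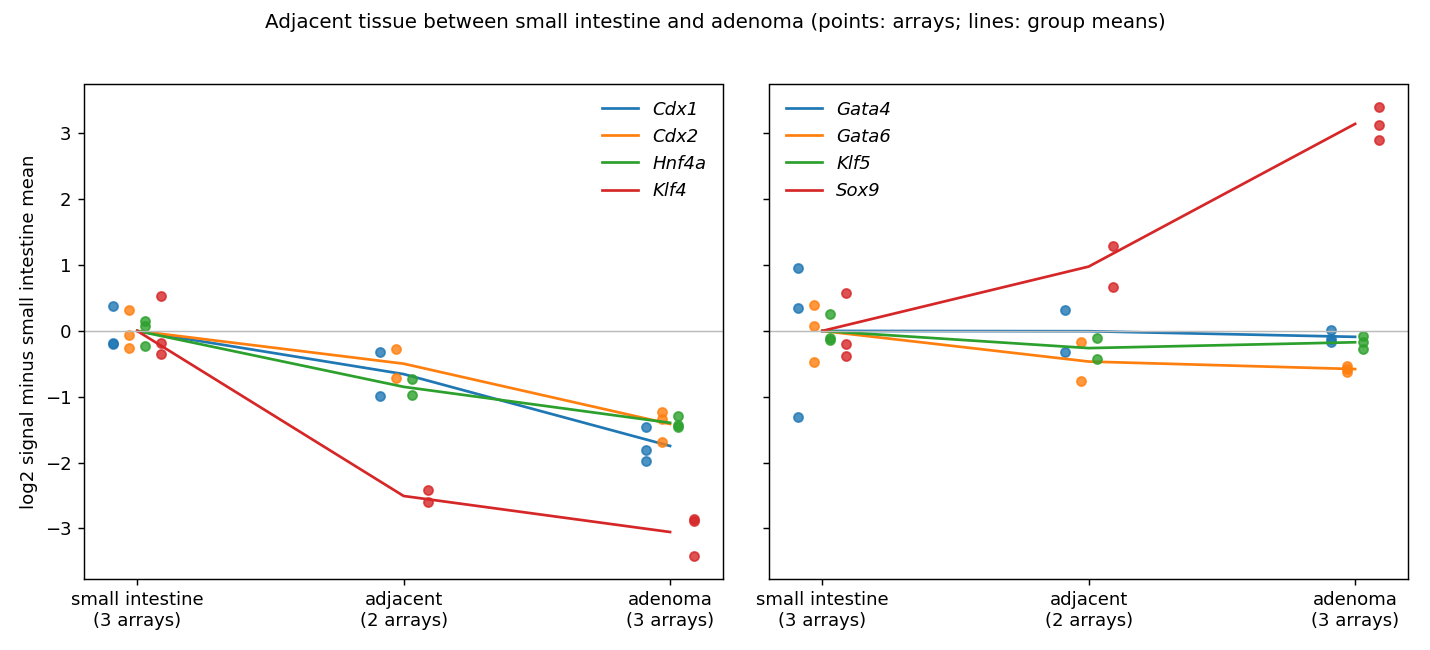
Log2 signal minus the small intestine mean on small intestine, adjacent and adenoma arrays (points), with lines through the group means, for 4 factors in each panel. Klf4 has most of its drop at adjacent tissue, with 82.1% of the distance covered, whereas Sox9 has covered 31.1%.

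Colon against small intestine compared the normal tissues, and no factor was called, with 0.00966% of 20698 genes tested called in either direction. By limma, 2 of the 8 had an unadjusted p under 0.05, as did 23.9% of all genes tested. These were Gata4 and Gata6, the 2 whose arrays did not overlap, which held for 29.2% of all genes tested. Gata4 was 37.8-fold higher in small intestine (log2 difference -5.24, SE 1.29, adjusted p = 0.0986), and it passed the filter through small intestine. Without colon replicate 3 its difference was -6.54 and was called (adjusted p = 0.00727), in a fit that called 7.24% of 22663 genes. Gata6 was 2.08-fold higher in small intestine (log2 difference -1.06, SE 0.30, adjusted p = 0.117). Cdx1 was at 0.62 (adjusted p = 0.280), Cdx2 at 0.03 (0.968; -0.23 without colon replicate 3), Hnf4a at -0.37 (0.441), Klf4 at -0.31 (0.565) and Klf5 at 0.10 (0.836). Sox9 was at 1.28 (adjusted p = 0.297) with all colon arrays and at 2.06 without replicate 3.

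CT26 against colon, the comparison for late tumorigenesis, held the largest differences. Hnf4a and Cdx1 were not well above background in CT26 and were at least 4685-fold and at least 3351-fold lower than in colon, each bound set by the dimmest signal well above background on each CT26 array. For Gata6 the bound was at least 123-fold lower. The fitted log2 differences were -14.33 for Hnf4a (adjusted p = 5.42e-07), -12.92 for Cdx1 (8.33e-07) and -8.83 for Gata6 (8.60e-07). These 3 passed the filter through colon alone and so had to be lower. Cdx2, measured on both sides, was 309-fold lower (log2 difference -8.27, SE 0.44, adjusted p = 6.28e-06, 3 against 3 arrays). Over all 21753 genes tested, 16.2% were called lower and 21% higher.

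The other 4 factors were not called. Klf4 was 1.93-fold lower in CT26 (log2 difference -0.95, adjusted p = 0.0250), Klf5 2.96-fold lower (-1.56, adjusted p = 0.0297) and Sox9 3.77-fold lower (-1.91, adjusted p = 0.0353), each without overlap of arrays, as for 63.4% of all genes tested. Gata4 was 6.33-fold higher (log2 difference 2.66, adjusted p = 0.0885); it was not well above background on colon replicate 1 and passed the filter through CT26. Without colon replicate 3, Sox9 was called lower at -2.69 (adjusted p = 2.55e-04) and Gata4 higher at 3.96 (adjusted p = 0.00366), where 19.4% of genes were called lower and 20.1% higher. Without CT26 replicate 1, Klf5 was called lower at -2.09 (adjusted p = 0.00503), where 13.2% of genes were called lower and 14.8% higher. With the authors' values, with quantile normalization and in a fit of all 5 groups, 6 factors were called lower. Of 21753 genes, these fits called 2955, 3459 and 4029 lower.

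Other factors of the gut epithelium were lower in CT26 as well. Of 18 partner factors tested, 14 were called lower and none higher, where 16.2% of all genes tested were called lower. They were led by Isx (at least 1024-fold), Ehf (at least 765-fold), Elf3 (at least 585-fold) and Nr5a2 (at least 253-fold). Hnf4g was at least 27.6-fold lower. Of the CDX targets 8 of 11 and of the HNF4A targets 6 of 10 were called lower, among them the goblet mucin gene Muc2 (at least 5334-fold), the villin gene Vil1 (at least 4019-fold) and the fatty acid binding protein gene Fabp2 (6544-fold). Of those tested, 11 partner factors, 4 CDX targets and 4 HNF4A targets were well above background on no CT26 array. They passed the filter through colon alone and so had to be lower. Fabp2 and Cdhr5, well above background on 2 of 3 CT26 arrays, and Cdh17 and Cftr, on 1 of 3, also passed through colon. Of the called CDX and HNF4A targets, only Abcb1a and Cdhr2 were well above background on every CT26 array. All 8 epithelial markers were called lower in CT26, with a median log2 difference of -10.59 when the 4 that were not well above background in CT26 are set at their bound. Without colon replicate 3, 19 of 20 partner factors, 9 of 11 CDX targets and 8 of 10 HNF4A targets were called lower, and 1 HNF4A target higher. That fit called 19.4% of all genes tested lower and 20.1% higher. CT26 differs from colon tissue in strain, in culture and in tumor state at once, which cannot be told apart. Among 13 relatives of the 8 genes tested, Sox2 (at least 8.30-fold), Gata2 (20.3-fold), Gata3 (15.3-fold) and Klf7 (4.02-fold) were called higher and none lower. Over all genes tested, 21% were called higher. Sox2, well above background on no colon array, and Gata3, on 2 of 3, passed the filter through CT26, so that Sox2 had to be higher there. Without colon replicate 3 the counts of relatives were 4 higher and 3 lower of 16.

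The early and late contrasts were set against each other by testing, for each factor, its adenoma minus small intestine difference minus its CT26 minus colon difference. The result was positive, that is the drop was deeper in CT26, for Hnf4a (12.94, adjusted p = 1.92e-09), Cdx1 (11.18, adjusted p = 2.65e-08), Gata6 (8.25, adjusted p = 2.16e-08) and Cdx2 (6.86, adjusted p = 1.51e-06). For Hnf4a, Cdx1 and Gata6 the CT26 side was below background, so these sizes rest on dim values. These 3 passed the filter through the tissues, so that their drop in CT26 was fixed in advance. Sox9 was at 5.06 (adjusted p = 3.19e-04), being higher in adenomas and not called in CT26. Klf4 was at -2.11 (adjusted p = 0.00131), its drop being deeper in adenomas. Gata4 (-2.75, adjusted p = 0.145; -4.05 and 0.00754 without colon replicate 3) and Klf5 (1.39, adjusted p = 0.0625) were not called. In this test 15.3% of 23515 genes were called higher and 15.6% lower. The Klf4 call was lost with the authors' normalized values (adjusted p = 0.0119) and with quantile normalization (0.0210), and Klf5 was called under both (0.00359 and 0.00600).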

How the data were processed

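RNA of 14 samples in 5 groups, taken from the labels, was hybridised to single-colour Agilent SurePrint G3 Mouse arrays. Scanner files deposited by the authors (Feature Extraction 10.7.3.1, NCBI37 positions) were the source, and their processed signal is a background-subtracted intensity without normalization between arrays. Log2 values normalized between arrays by the authors were deposited as a table, by a method not given in the sources used here. The deposited table also holds the authors' own fold changes, p-values and adjusted p-values for pairs of groups, which were not used, and 28 columns of flags and detection calls of single samples, likewise unused.

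After control and outlier spots had been dropped, processed signals were put on the log2 scale, centred on the 75th percentile of their array and averaged over the spots of a probe. A probe was tested if all arrays of either group compared showed it well above background. The test was made with limma 3.58.1 (R 4.3.3, lmFit and eBayes), each pair of groups on its own arrays, with Benjamini-Hochberg adjustment over all probes tested. A call needed a log2 difference of at least 1.2, up or down, with an adjusted p no higher than 0.01. Counts over genes took each gene's brightest probe. A probe well above background on no array of a group was given a bound. The contrast of contrasts was fitted on 4 groups. The model was tested on simulated data.

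The share of probes well above background, which stands for depth, was 46.9% to 58.2%, and the number of arrays limits the precision. The arrays lay on 2 slides. Of 160 genes in the lists, 2 were not found. The text names all 8 factors and, of each list, up to 4 called genes with the largest difference, plus any partner or relative; some items that this rule would name are not reported here. The factors and lists were chosen with earlier results of these data known. Deviations of same-numbered arrays correlated at -0.12 to 0.29 and of other pairs at -0.29 to 0.21, and the main fits used no pairing. The 2 adjacent arrays deviate from their mean as mirror images, so this check cannot decide on pairing for them. In the sample titles the adjacent arrays carry other numbers than their replicate numbers, and the title number block used those.

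The alternatives were the authors' values, normexp background correction, quantile normalization, other filters, a joint fit, slide and replicate blocks, an intensity trend, all probes of a gene, another threshold, each array left out and, added after seeing the data, scaling on epithelial markers. Promoter sequences are those of RefSeq for GRCm38.p6.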

Additional observations from a re-analysis of the deposited data

Results flagged for a closer look

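The early and late tumor contrasts were tested against each other, and 6 of the 8 factors were called. Of 23515 genes in this test, 15.3% were called higher and 15.6% lower. The adenoma minus small intestine difference exceeded the CT26 minus colon difference by 12.94 on the log2 scale for Hnf4a, 11.18 for Cdx1, 8.25 for Gata6, 6.86 for Cdx2 and 5.06 for Sox9. Klf4 went the other way, at -2.11. The corresponding limma adjusted p-values were 1.92e-09, 2.65e-08, 2.16e-08, 1.51e-06, 3.19e-04 and 0.00131. For Hnf4a, Cdx1 and Gata6 the CT26 values were below background, so their sizes rest on dim values. These 3 passed the filter through the tissues, so that their drop in CT26 was fixed in advance. With signal required in every group, 4 factors were tested and 3 called, where 991 of 16106 genes were called higher and 3044 lower. The Klf4 call was lost with the authors' normalized values and with quantile normalization. Without colon replicate 3 a seventh factor, Gata4, passed the threshold at -4.05 (adjusted p = 0.00754), and without CT26 replicate 1 Klf5 did, at 1.92 (adjusted p = 0.00189).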

How the results depend on the processing

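Over all alternatives, 803 of 879 values of single factors kept their direction and their side of the threshold, 21 lost the call, 22 gained one and 33 changed sign, none of which had been called. The count of factors called in adenomas against small intestine was 5, and 3 with the authors' values, 3 with quantile normalization and 2 when scaled on epithelial markers. In that order, 2500, 2028, 2719 and 6379 of 22155 genes were called higher and 2464, 1561, 2063 and 1018 lower. Leaving out each array gave 4 to 5 factors. In adenomas against adjacent tissue the count of 1 became 0 with no filter on dim probes, 0 in a fit of all 5 groups, 0 with slide as a block, 0 with a replicate block, 0 with the title number as a block and 3 at an adjusted p of 0.05 without a fold threshold, and 0 to 1 without single arrays. The main fit called 535 genes higher and 397 lower. In the order given, the alternatives with all arrays called 53, 162, 130, 68, 0 and 2212 higher and 1, 37, 32, 14, 0 and 2294 lower. In adjacent tissue against small intestine the count of 0 became 1 in the fit of all 5 groups and 1 at an adjusted p of 0.05, and it was 0 to 0 without single arrays. Of 21700 genes the main fit called 2 higher and 0 lower. The fit of all 5 groups called 91 higher and 46 lower, and the other threshold 217 and 134. In colon against small intestine it became 1 in the fit of all 5 groups and was 0 to 1 without single arrays, being 1 without colon replicate 3. Of 20698 genes, the fit of all 5 groups called 279 higher and 519 lower, against 1 and 1 in the main fit. Without colon replicate 3, 7.24% of 22663 genes were called. In CT26 against colon the count of 4 became 6 with the authors' values, 6 with quantile normalization and 6 in the fit of all 5 groups. These fits called 2955, 3459 and 4029 of 21753 genes lower, against 3524 in the main fit. The count of factors became 1 when both groups had to be well above background, since 4 factors were then tested, and 7 at an adjusted p of 0.05. The stricter filter called 1375 of 16514 genes lower, and the other threshold 4446 of 21753. Without single arrays the count of factors was 4 to 6. In the test between contrasts 6 became 3 under the same stricter filter, again with 4 factors tested, and was 6 to 7 without single arrays. That filter called 991 of 16106 genes higher and 3044 lower. With the replicate block the counts were 4, 0, 0, 0, 4 and 6 in the order above. Over all genes it called 2227, 68, 0, 0, 3129 and 3464 higher and 2226, 14, 0, 0, 3254 and 3260 lower. Cdx2 in adenomas against small intestine was lost at an adjusted p of 0.01003. The replicate block changed no other call than this and that of Sox9 against adjacent tissue. The cause of these changes was otherwise not tested. No list gene that was called in a pair of groups changed sign under an alternative that kept every array.

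The sign changes were as follows. Scaling on epithelial markers turned Gata4 (0.72), Gata6 (0.23) and Klf5 (0.64) in adenomas against small intestine, Gata4 (0.10) and Gata6 (0.0749) in adenomas against adjacent tissue, Cdx2 (0.13), Gata4 (0.62), Gata6 (0.16) and Klf5 (0.36) in adjacent tissue against small intestine, and Hnf4a (0.0545) and Klf4 (0.11) in colon against small intestine. The authors' values and quantile normalization turned Gata4 (0.12 and 0.13) and Klf5 (0.21 and 0.19) in adenomas against small intestine and Gata4 (0.28 and 0.27) and Klf5 (0.19 and 0.17) in adjacent tissue against small intestine. There Gata4 was also at 0.0055 with normexp and 0.48 with the replicate block. Without single arrays, Gata4 ranged from -0.74 to 0.39 in adenomas against small intestine, -0.41 to 0.24 against adjacent tissue and -0.66 to 0.48 in adjacent tissue against small intestine. Gata6 ranged from -0.41 to 0.18 and Klf5 from -0.0701 to 0.25 in adenomas against adjacent tissue, and Cdx2 from -0.23 to 0.36 and Klf5 from -0.0634 to 0.23 in colon against small intestine.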

Other observations

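The genes whose profile over the 14 arrays was most like each factor were found among 23721 genes by the root mean square difference of centred scaled log2 signals. Hnf4a was nearest to the tight junction gene Cldn3 (0.31) and to Fcgbp (0.39), which codes for a mucus protein of goblet cells. Cdx1 was nearest to Cyp2s1 (0.50) and Acss1 (0.60), Cdx2 to Thnsl2 (0.45) and Mtm1 (0.46), and Gata6 to a transcript named LOC100047292 (0.32) and Ifnlr1 (0.37). For these 4 factors the likeness rests largely on the drop in CT26, since the median over all genes was 3.36 to 5.88. Gata4 had the weakest matches, the alpha-fetoprotein gene Afp (1.05) and Mosc1 (1.21). Klf5 was nearest to Slc26a11 (0.30) and Mfap1a (0.33), Klf4 to an unnamed transcript (0.52) and Nudt4 (0.53), and Sox9 to 2810037O22Rik (0.34) and Col9a2 (0.44), a collagen gene.

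Among the 8 factors themselves, the smallest difference was between Cdx2 and Gata6 (1.05), followed by Cdx1 and Hnf4a (1.11), Klf5 and Sox9 (1.28) and Klf4 and Klf5 (1.33). Cdx1 and Cdx2 differed from each other by 1.77, and Gata4 and Gata6 by 3.96. All 14 arrays entered these values, and they carry no test.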
